A study of Mus musculus with 10 samples.

Results

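The genes described here mark cell types other than T cells, and they were read on each array to see which other cells the CD4+ T helper cultures held. The list asked for 38 genes, chosen by name as markers of basophils and mast cells, B cells, MHC class II-bearing cells, neutrophils and other myeloid cells, NK cells, and platelets and erythroid cells. Of these, 37 had a probe set with 1 gene symbol, among 22180 genes in all. They were 13 basophil and mast cell genes, 7 B cell genes, 3 MHC class II genes, 7 neutrophil and myeloid genes, 2 NK genes and 5 platelet and erythroid genes. Cd74 was not analysed here. Where a gene had several probe sets, the one with the highest mean over the 10 arrays was used.

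The cells were CD4+ lymphocytes from spleens of female wild-type BALB/c mice aged 10 to 14 weeks, taken out with a column-based CD4+ cell isolation kit. Whether other spleen cells entered a culture with them was not tested. All cultures received antibodies to CD3 (4 µg/ml) and CD28 (30 ng/ml). The Th17 cultures (4 arrays) also received IL-6 (20 ng/ml), TGFβ (5 ng/ml), IL-23 (10 ng/ml) and an antibody to IFNγ (10 µg/ml). The Th2 cultures (3 arrays) received IL-4 (100 ng/ml) and the same antibody to IFNγ (10 µg/ml). The Th0 cultures (3 arrays) received the CD3 and CD28 antibodies alone. The medium was renewed after 72 h, and the labels give no time of harvest. The labels call the replicates biological without naming separate animals, so p-values cover the spread between arrays, which may be technical. Values are log2 expression levels, so that a difference of 1 is a doubling. In RNA from a whole culture, fewer cells of a type and less RNA per cell cannot be told apart.

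Basophils and mast cells are rare cells that carry the high-affinity IgE receptor, store histamine and proteases in granules, and depend on IL-3 or on the KIT receptor for growth. Spleen also holds B cells, which make up much of the organ, as well as neutrophils, macrophages, NK cells, platelets and red cell precursors. A T helper culture is made from purified CD4+ cells, and the transcripts of these other cell types were read here as their markers. Whether they came from cells that the purification left behind was not tested.

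A first principal component of all genes set 3 arrays apart and held 35.8% of the variance. These were Th17 replicate 4 (score 37.5), Th2 replicate 2 (38.9) and Th2 replicate 3 (55.8), against scores of -34.0 to -0.96 on the other arrays. The table has no detection call, so a value was called near background on an array where it was at or below the 95th percentile of 1390 olfactory and vomeronasal receptor genes there. That limit ran from 3.51 on Th2 replicate 1 to 4.55 on Th17 replicate 4. It left 32.2%, 39.4% and 32.5% of all genes above it on the 3 arrays that stood apart, and 40.2% to 49.2% on the others. All 13 T cell identity genes exceeded the limit on every array. Cd3e, a chain of the T cell receptor complex, lay between 9.36 and 10.44, and Cd4, the defining co-receptor, between 7.09 and 8.76. Cd4 was lowest on the same 3 arrays, at 7.15 on Th17 replicate 4 and at 7.23 and 7.09 on Th2 replicates 2 and 3.

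The basophil and mast cell genes gave the widest differences between single cultures, so the promoters of 4 of them are shown. Cpa3 encodes the mast cell carboxypeptidase, Fcer1a and Ms4a2 the alpha and beta chains of the high-affinity IgE receptor, and Mcpt8 a protease of mouse basophils. Each RefSeq window (GRCm38.p6) covers 250 bases before the start site and 50 after it, all on the minus strand. The windows lie at chr3:20242132-20242431 for Cpa3, chr1:173227180-173227479 for Fcer1a, chr19:11623670-11623969 for Ms4a2 and chr14:56085148-56085447 for Mcpt8. Capitals mark the words AGATAA or TGATAA, or either on the opposite strand (TTATCT or TTATCA), which GATA transcription factors are known to bind.
Cpa3: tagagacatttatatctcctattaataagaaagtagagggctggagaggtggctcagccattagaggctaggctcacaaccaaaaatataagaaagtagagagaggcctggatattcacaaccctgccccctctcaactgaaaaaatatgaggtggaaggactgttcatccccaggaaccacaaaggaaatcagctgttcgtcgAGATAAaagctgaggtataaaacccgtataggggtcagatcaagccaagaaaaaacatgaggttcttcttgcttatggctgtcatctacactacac
Fcer1a: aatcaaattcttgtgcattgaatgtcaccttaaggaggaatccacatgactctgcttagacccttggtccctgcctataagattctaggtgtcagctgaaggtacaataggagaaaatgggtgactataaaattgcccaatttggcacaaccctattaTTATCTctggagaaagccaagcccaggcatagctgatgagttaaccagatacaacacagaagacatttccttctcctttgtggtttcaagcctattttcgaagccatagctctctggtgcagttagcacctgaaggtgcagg
Ms4a2: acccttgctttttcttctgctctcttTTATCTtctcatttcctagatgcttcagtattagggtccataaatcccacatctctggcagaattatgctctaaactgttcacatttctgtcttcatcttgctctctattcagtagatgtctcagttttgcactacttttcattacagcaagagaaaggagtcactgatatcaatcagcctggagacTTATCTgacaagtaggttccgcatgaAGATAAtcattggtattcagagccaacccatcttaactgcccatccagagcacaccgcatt
Mcpt8: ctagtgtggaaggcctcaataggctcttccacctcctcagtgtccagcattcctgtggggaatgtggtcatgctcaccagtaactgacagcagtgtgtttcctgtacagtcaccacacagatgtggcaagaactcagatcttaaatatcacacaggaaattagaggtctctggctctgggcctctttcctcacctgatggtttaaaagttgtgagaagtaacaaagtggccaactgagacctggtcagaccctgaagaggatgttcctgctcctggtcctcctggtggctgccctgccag
The word was present in 18.6% of 32851 RefSeq windows of this length. It stood in the windows of 5 of the 10 basophil and mast cell genes that had one, namely Cpa3, Fcer1a, Ms4a2 (3 matches), Slc18a2 and Csf2rb2, and in 8 of the 27 members with a window. A match is a description of these letters and shows no binding.

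Basophil and mast cell transcripts were high in 3 of the 10 cultures, in Th17 replicates 2 and 3 and in Th0 replicate 1. The mean of the 13 genes was 4.41, 6.53, 6.31 and 4.03 in Th17 replicates 1 to 4. It was 4.48, 3.62 and 3.76 in Th2 replicates 1 to 3, and 7.15, 3.86 and 4.63 in Th0 replicates 1 to 3. In 9 of the 13 genes the value of Th17 replicate 2 was at least 1 log2 unit above the gene's median over the 10 arrays, where 0.699% of all genes were. The same held for 10 of 13 genes on Th17 replicate 3, against 0.757% of all genes, and for 11 of 13 on Th0 replicate 1, against 0.92%. For 11 of the 13 genes these were the 3 highest arrays, an order that 0.956% of all genes had. Kit and Hdc were the exceptions. The 3 arrays were picked by the mean of these same 13 genes. That choice itself raises these counts, so the shares of all genes beside them are no test. On the 7 other arrays few of the genes were as far above their medians. It was 1 of 13 on Th17 replicate 1 (0.834% of all genes) and 0 of 13 on Th17 replicate 4 (1.44%). It was 1 of 13 on Th2 replicate 1 (0.839%), 0 on Th2 replicate 2 (1.74%) and 0 on Th2 replicate 3 (1.52%). It was 0 of 13 on Th0 replicate 2 (0.915%) and 1 of 13 on Th0 replicate 3 (0.424%).

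**Figure D1:**
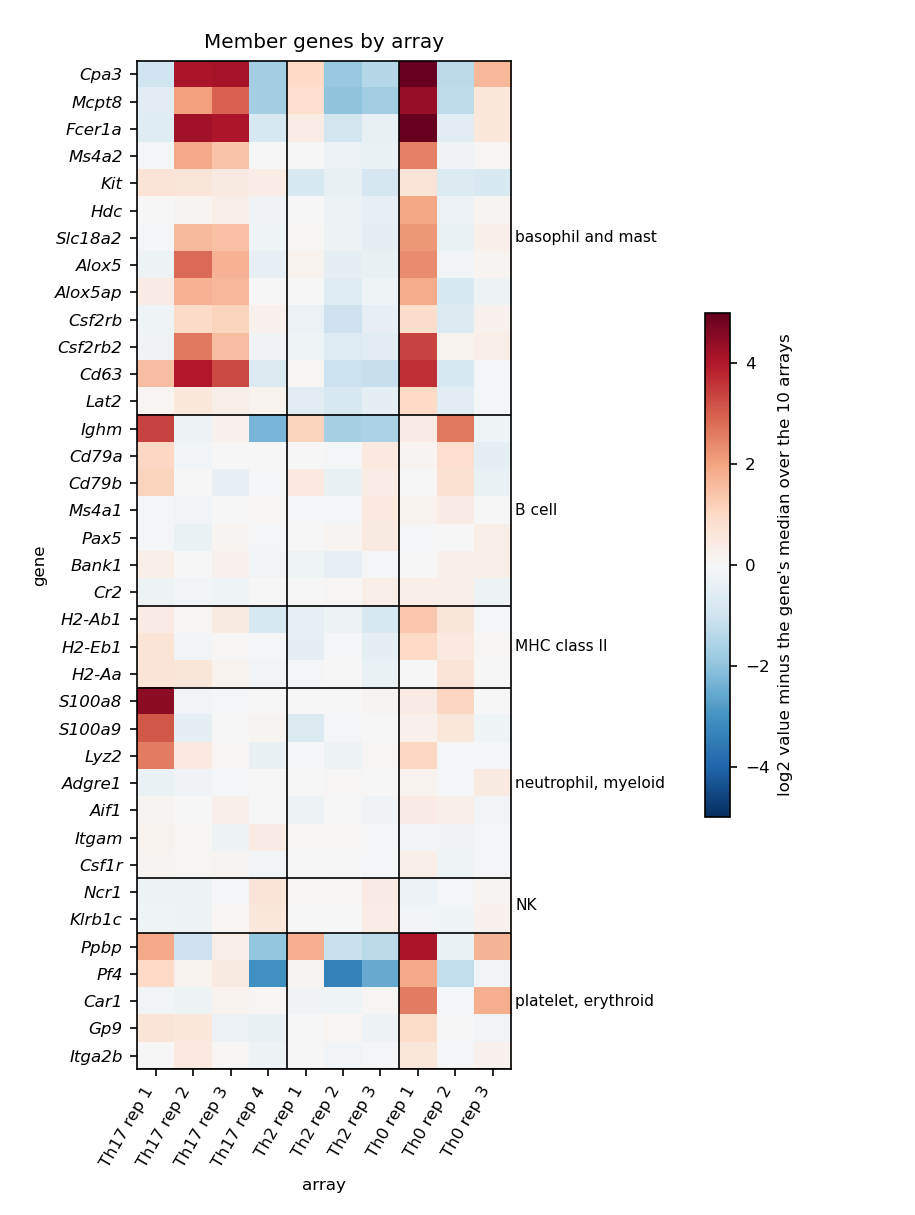
The 37 marker genes (rows, by cell kind) on the 10 arrays (columns, Th17, Th2 and Th0), coloured by log2 value minus the gene's median over the 10 arrays. Th17 replicates 2 and 3 and Th0 replicate 1 are red across most of the 13 basophil and mast cell genes, while S100a8, S100a9 and Lyz2 are red on Th17 replicate 1.

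Of the 13 genes, Cpa3, Mcpt8, Fcer1a and Cd63 spanned the widest ranges over the 10 arrays. Cpa3 stood at 4.17, 9.28, 9.35 and 3.45 in Th17 replicates 1 to 4, at 6.20, 3.30 and 3.74 in Th2 replicates 1 to 3, and at 10.74, 3.83 and 6.86 in Th0 replicates 1 to 3. On Th0 replicate 1 it was 47.0-fold above its median over the 10 arrays. Cpa3 was above the near-background limit on 7 arrays, so it was measurable outside those 3 cultures too.

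Fcer1a stood at 2.73, 7.56, 7.38 and 2.54 in the Th17 replicates, at 3.72, 2.44 and 2.97 in the Th2 replicates, and at 8.40, 2.76 and 3.87 in the Th0 replicates. Its levels split into high values on 3 arrays and values of at most 3.87 on the others, and it exceeded the limit on 4 arrays. Ms4a2 stood at 3.30, 5.25, 4.79 and 3.36 in the Th17 replicates, at 3.36, 3.07 and 3.03 in the Th2 replicates, and at 5.89, 3.17 and 3.42 in the Th0 replicates. It was above the limit on those 3 arrays and on no other.

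Mcpt8 stood at 4.65, 7.23, 8.14 and 3.49 in the Th17 replicates, at 6.01, 3.16 and 3.42 in the Th2 replicates, and at 9.54, 3.92 and 5.70 in the Th0 replicates. Behind the 3 high arrays came Th2 replicate 1 and Th0 replicate 3, the arrays that also came next for Cpa3. The values of Mcpt8 and Cpa3 were lowest on the 3 arrays that stood apart on the first component.

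Cd63, a tetraspanin of granule and lysosome membranes that many cell types make, stood at 7.00, 9.46, 8.79 and 4.76 in the Th17 replicates, at 5.58, 4.40 and 4.31 in the Th2 replicates, and at 9.12, 4.72 and 5.36 in the Th0 replicates. Slc18a2, the vesicular transporter that loads histamine into granules, reached 6.51 and 6.37 on Th17 replicates 2 and 3 and 7.04 on Th0 replicate 1. Its other values lay between 4.42 and 5.14. Hdc, the enzyme that makes histamine, behaved differently. It was 3.31 and 3.46 on Th17 replicates 2 and 3, and it exceeded the limit on 1 array only, Th0 replicate 1, at 5.14.

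The leukotriene genes followed the same 3 arrays. Alox5, the lipoxygenase of leukotriene synthesis, stood at 5.21, 8.29, 7.21 and 5.05 in the Th17 replicates, at 5.62, 5.01 and 5.07 in the Th2 replicates, and at 7.84, 5.31 and 5.60 in the Th0 replicates. Alox5ap, its activating protein, reached 5.97 and 5.89 on Th17 replicates 2 and 3 and 6.07 on Th0 replicate 1, with values of 3.47 to 4.64 elsewhere. Each of these genes has another probe set, and its highest values fell on the same 3 arrays. Neutrophils and macrophages also use both genes. On Th17 replicates 2 and 3 and Th0 replicate 1, the neutrophil gene S100a8 was 2.54, 2.60 and 3.08. Ly6g, a neutrophil surface protein, was 2.83, 2.72 and 6.07 on them, and Tyrobp, a signalling adaptor of myeloid and NK cells, 4.97, 4.68 and 7.16, so that both were highest on Th0 replicate 1. Of 25 further myeloid genes measured, 0, 0 and 3 were at least 1 log2 unit above their medians on these 3 arrays, and the part of myeloid cells in the leukotriene genes was not tested.

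Among the growth factor receptors, Csf2rb2, the mouse IL-3 receptor beta chain, reached 6.00 and 4.92 on Th17 replicates 2 and 3 and 6.74 on Th0 replicate 1, against 2.72 to 3.70 elsewhere. Csf2rb, the beta chain shared by the receptors for IL-3, IL-5 and GM-CSF, reached 5.39, 5.53 and 5.32 on the same arrays and 3.39 to 4.64 elsewhere. The pair are similar neighbouring genes on chromosome 15, so probes of one may have bound transcripts of the other, and their separate levels are uncertain. Lat2, an adaptor in IgE receptor signalling, varied less, from 4.31 on Th2 replicate 2 to 6.09 on Th0 replicate 1.

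Kit, the stem cell factor receptor on mast cells, had another order. It stood at 5.07, 5.02, 4.83 and 4.78 in the Th17 replicates, at 3.62, 4.02 and 3.58 in the Th2 replicates, and at 5.04, 3.73 and 3.65 in the Th0 replicates. All 4 Th17 cultures were high, including replicates 1 and 4, where Fcer1a and Ms4a2 were near background.

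**Figure D2:**
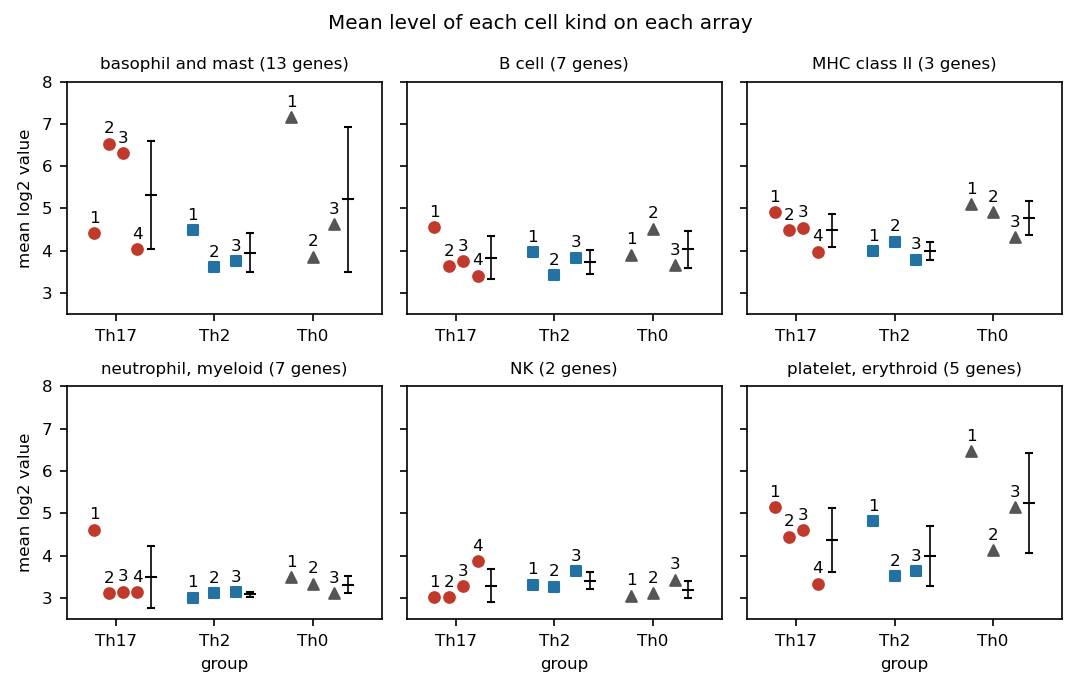
Mean log2 value of the genes of each cell kind on each array, with replicate numbers beside the points and bars giving the mean and SD of each group (n = 4 Th17, 3 Th2 and 3 Th0 arrays). The basophil and mast cell mean lies at 6.53, 6.31 and 7.15 on Th17 replicates 2 and 3 and Th0 replicate 1, and between 3.62 and 4.63 on the other arrays.

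The 3 cultures differed from each other in their granule proteases. Among further mast cell and basophil genes, Mcpt4, a chymase of connective tissue mast cells, was 2.93 and 4.15 on Th17 replicates 2 and 3 and 8.19 on Th0 replicate 1. Prg2, the major basic protein of eosinophils, was 3.11 and 4.25 on Th17 replicates 2 and 3 and 8.58 on Th0 replicate 1. Of the other eosinophil genes measured, Epx, eosinophil peroxidase, was 4.61 on Th0 replicate 1, and Siglecf, Ccr3 and Il5ra were between 2.49 and 3.21 there. Cma1, another mast cell chymase, was 7.74 and 6.59 on Th17 replicates 2 and 3 and 7.76 on Th0 replicate 1.

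The opposite order held for the mucosal mast cell proteases Mcpt1 and Mcpt2, which were named after their values were seen. Mcpt2 was 10.74 and 10.19 on Th17 replicates 2 and 3 and 6.55 on Th0 replicate 1. Mcpt1 was 10.15 and 9.88 on Th17 replicates 2 and 3 and 5.78 on Th0 replicate 1, and Th17 replicate 1 had 6.08. On the 6 other arrays Mcpt1 was at most 3.37 and Mcpt2 at most 2.83. They are similar genes, so their separate levels are uncertain. Prss34, a basophil protease also named after its values were seen, was 3.73 and 4.00 on Th17 replicates 2 and 3 and 6.06 on Th0 replicate 1. These contrasts between the 3 cultures are of 1 array against 2 and carry no test.

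**Figure D3:**
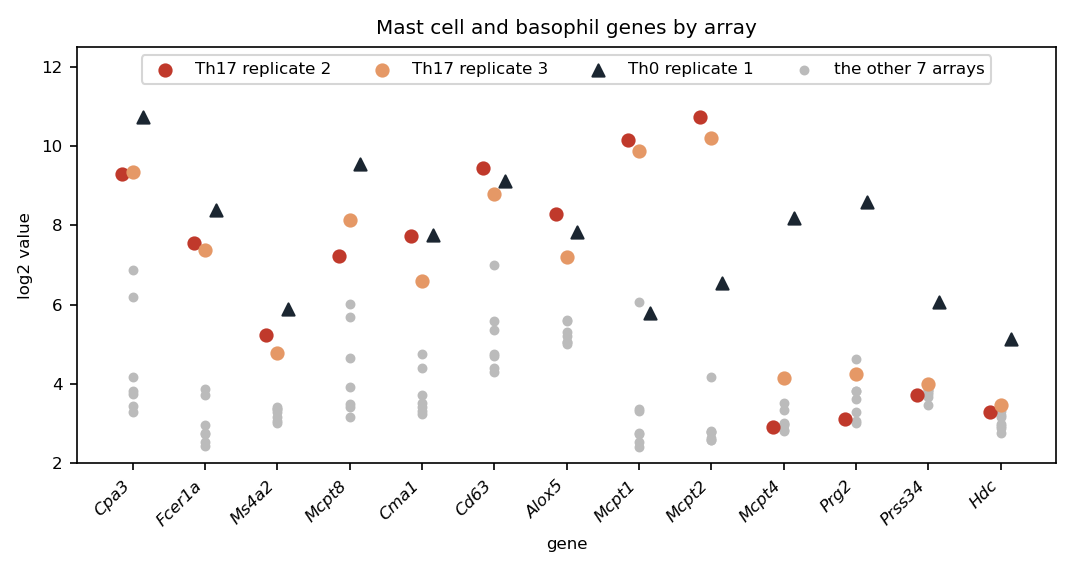
Log2 values of 13 mast cell, basophil and eosinophil genes on Th17 replicate 2, Th17 replicate 3, Th0 replicate 1 and the other 7 arrays. Mcpt1 and Mcpt2 are highest on the Th17 arrays (9.88 to 10.74), whereas Mcpt4 (8.19), Prg2 (8.58) and Prss34 (6.06) are highest on Th0 replicate 1.

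Of 21 further basophil and mast cell genes measured, 4 had the same 3 highest arrays as the members. Fcer1g, the gamma chain that the IgE receptor shares with other Fc receptors, was 6.05 and 5.65 on Th17 replicates 2 and 3 and 7.38 on Th0 replicate 1. Gata2, a transcription factor of mast cells and basophils that was named after its values were seen, was 4.79, 4.73 and 5.09 on these arrays and at most 3.98 elsewhere. Cyp11a1, also among the 21, had another order and was highest on Th0 replicate 2, at 8.57. It was 6.76 and 6.03 on Th17 replicates 2 and 3 and 7.96 on Th0 replicate 1. Il4, a cytokine that basophils and Th2 cells both make, had its 3 lowest values on the same 3 arrays, as did 1.01% of all genes. It was 6.33 and 6.94 on Th17 replicates 2 and 3 and 7.45 on Th0 replicate 1, against 7.54 to 9.32 elsewhere. Il13, another cytokine of both, was 10.21 and 9.07 on Th17 replicates 2 and 3 and 9.46 on Th0 replicate 1, within the 9.49 to 11.02 of the other arrays or just below it.

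Of the 7 B cell genes, Ighm varied most between cultures. Ighm, the constant region of IgM heavy chain, stood at 10.41, 6.79, 7.26 and 4.71 in the Th17 replicates, at 8.17, 5.36 and 5.47 in the Th2 replicates, and at 7.46, 9.68 and 6.81 in the Th0 replicates. It was highest on Th17 replicate 1 and next on Th0 replicate 2, and lowest on the 3 arrays that stood apart. Ighm has 7 probe sets, and that low end held for the one used and no other. The next most intense had the same 2 highest arrays (9.19 and 8.15), but Th17 replicate 3 (5.49) lay below Th2 replicate 3 (5.80). Some weaker ones had other highest arrays. Cd79a and Cd79b, the signalling chains of the B cell receptor, had the same 2 highest arrays as Ighm. Cd79a was at 4.21 and 3.99 and Cd79b at 4.78 and 4.41. Cd79a exceeded the limit on those 2 arrays only. Of the other B cell genes, Ms4a1 (CD20), Bank1, an adaptor, and Cr2, a complement receptor, exceeded it on no array, while Pax5, the factor that sets B cell identity, passed it on 1 array, Th2 replicate 1, at 3.52 against a limit of 3.51. Of 14 further B cell genes measured, 2 had the same 2 highest arrays as Ighm, and 8 had neither array among their 2 highest. Only 3 to 6 of the 14 exceeded the limit on each array, so most of these orders are of values near background. The share of all genes with such orders was not determined.

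Of 6 plasma cell genes measured, Jchain and Mzb1 had the same 2 highest arrays as Ighm, and the other 4 had neither array among their 2 highest. Jchain, which joins IgM and IgA into polymers, was 6.78 on Th17 replicate 1 and 5.15 on Th0 replicate 2, and at most 3.54 on the other arrays. Mzb1, a chaperone of antibody secretion, was 4.43 and 5.33 on these arrays and at most 3.76 on the others. Xbp1 and Irf4, transcription factors of plasma cells that T cells also use, were highest on Th2 replicate 1 at 8.69 and on Th2 replicate 2 at 9.94. Sdc1 (CD138) and Tnfrsf17 (BCMA), plasma cell surface proteins, exceeded the limit on no array. Cd8a, the co-receptor of cytotoxic T cells, was highest on Th0 replicate 2 at 5.63, followed by Th17 replicate 1 at 4.88. The part of each cell type in the Ighm values was not tested.

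MHC class II genes, which B cells, dendritic cells and macrophages share, varied less between cultures than Ighm. H2-Ab1 stood at 5.64, 5.26, 5.67 and 4.43 in the Th17 replicates, at 4.79, 4.98 and 4.43 in the Th2 replicates, and at 6.59, 5.81 and 5.18 in the Th0 replicates. H2-Eb1 was between 4.42 and 5.92, highest on Th0 replicate 1. H2-Aa, at 2.51 to 3.52, exceeded the limit on no array. The mean of the 3 genes was highest on Th0 replicate 1, at 5.10, and was 4.91 on both Th17 replicate 1 and Th0 replicate 2.

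Of the 7 neutrophil and myeloid genes, S100a8, S100a9 and Lyz2 were highest in 1 culture, Th17 replicate 1. S100a8, a subunit of the calprotectin complex of neutrophils, was 7.16 on Th17 replicate 1 and 2.54, 2.60 and 2.68 on Th17 replicates 2 to 4. It was 2.65, 2.67 and 2.80 in the Th2 replicates and 3.08, 3.74 and 2.65 in the Th0 replicates. Its partner and neighbour on chromosome 3, S100a9, was 6.52 on Th17 replicate 1 and at most 4.00, on Th0 replicate 2, elsewhere. Lyz2, the lysozyme of neutrophils and macrophages, was 5.43 on Th17 replicate 1, 3.91 on Th0 replicate 1 and at most 3.33 on the other arrays.

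The macrophage genes did not follow. Adgre1 (F4/80), Itgam (CD11b) and Csf1r, the receptor for macrophage colony-stimulating factor, exceeded the limit on no array, and their values lay between 2.79 and 3.68. Aif1, a macrophage cytoskeletal protein, lay between 3.31 and 3.98. The mean of the 7 neutrophil and myeloid genes was 4.61 on Th17 replicate 1 and 3.00 to 3.49 on the others. The 25 further myeloid genes had no single high array: 8 were highest on Th0 replicate 1, 7 on Th2 replicate 3 and the others on 6 further arrays. On each array 4 to 9 of the 25 exceeded the limit (5 on Th2 replicate 3), so most of these values lay near background. Of the 4 with the widest range, Ly6g was 6.07 on Th0 replicate 1 and at most 3.55 elsewhere, and Tyrobp was 7.16 there and at most 5.36 elsewhere. Ly6c2, a monocyte surface protein that some T cells also carry, was highest on Th0 replicate 2 at 7.57, and Ctss, the protease cathepsin S, on Th17 replicate 2 at 8.52. On Th17 replicate 1, where S100a8 was at its highest, 0 of the 25 were at least 1 log2 unit above their medians. On that array 7 of the 25 exceeded the limit, against 45.4% of all genes, and 11 of the 25 had it among their 3 highest arrays. The neutrophil genes Ly6g (2.85), Camp (2.55), Retnlg (2.68), Csf3r (2.99), Ngp (3.40) and Ltf (3.41), picked from the 25, were near background on Th17 replicate 1.

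The 2 NK cell members were low throughout, while 6 to 11 of 12 further NK and CD8 T cell genes exceeded the limit on each array. Xcl1, with the widest range of these, ran from 5.38 on Th0 replicate 3 to 10.96 on Th17 replicate 2. Ncr1, the NKp46 receptor, lay between 3.42 and 4.36 and exceeded the limit on 1 array, Th2 replicate 1. Klrb1c, the NK1.1 antigen gene, lay between 2.57 and 3.37 and exceeded it on none; BALB/c mice are known to lack the NK1.1 epitope. Klrd1 (CD94), which NK cells and activated T cells share, was 6.21, 6.51, 7.17 and 5.84 in the Th17 replicates, 3.79, 3.70 and 3.99 in the Th2 replicates, and 3.69, 4.85 and 3.89 in the Th0 replicates. Every Th17 value lay above every other value. Klrd1 rose in Th17 against Th0 by 2.29 log2 units ± 0.327 (SE, limma adjusted p = 0.0381) and against Th2 by 2.60 ± 0.327 (limma adjusted p = 0.0177). With each of the 10 arrays left out in turn, a repeat chosen after seeing the data, the Klrd1 call against Th0 was lost in 7 fits, those without Th17 replicate 1, 2 or 3, Th2 replicate 2 or 3, or Th0 replicate 1 or 3 (limma adjusted p between 0.0245 and 0.196 over the 10 fits). The call against Th2 was lost in 4 fits, those without Th17 replicate 1 or 2 or Th2 replicate 2 or 3 (limma adjusted p between 0.0102 and 0.148). Without Th17 replicates 2 and 3 and Th0 replicate 1, the 3 arrays with the highest mast cell gene levels, Klrd1 differed by 1.65 against Th0 (limma adjusted p = 0.705) and by 2.19 against Th2 (limma adjusted p = 0.235).

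Of the 4 platelet genes, Ppbp and Pf4 varied most between cultures. Ppbp, the platelet basic protein precursor, stood at 7.25, 4.28, 5.65 and 3.35 in the Th17 replicates, at 7.14, 4.22 and 4.00 in the Th2 replicates, and at 9.43, 5.02 and 7.02 in the Th0 replicates. Pf4, platelet factor 4, which lies next to Ppbp on chromosome 5, stood at 6.59, 5.80, 6.06 and 2.57 in the Th17 replicates, at 5.76, 2.24 and 3.08 in the Th2 replicates, and at 7.49, 4.39 and 5.47 in the Th0 replicates. Both were highest on Th0 replicate 1, next on Th17 replicate 1, and lowest on the 3 arrays that stood apart.

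Gp9, a chain of the platelet von Willebrand factor receptor, ran from 4.03 to 5.34, and Itga2b, the platelet fibrinogen receptor alpha chain, from 3.84 to 4.67. Both were highest on Th0 replicate 1. Car1, the carbonic anhydrase of erythroid cells, was near 3 in most cultures: 2.69, 2.60, 3.00 and 2.88 in the Th17 replicates, 2.64, 2.64 and 2.89 in the Th2 replicates, but 5.39, 2.79 and 4.66 in the Th0 replicates. It exceeded the limit on Th0 replicates 1 and 3 only. All 5 platelet and erythroid genes thus had their highest value on Th0 replicate 1, the array on which the basophil and mast cell mean was also highest.

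Set against all genes, the members were unevenly detected, and many varied more within groups than most genes. Of the 37, 8 exceeded the near-background limit on no array, against 46.5% of all genes, and 3 exceeded it on all 10, against 28.6%. The range over the 10 arrays was at least 2 log2 units for 19 of the 37, against 5.18% of all genes. The SD between arrays of the same group ranked Cpa3 the 2nd of 22180 genes (2.92), Fcer1a 4 (2.45), Mcpt8 5 (2.26), Ighm 9 (1.93), Cd63 12 (1.91), Ppbp 15 (1.87) and Pf4 19 (1.76). The median SD was 1.04 for the basophil and mast cell genes, 0.73 for platelet and erythroid genes, 0.37 for MHC class II genes, 0.31 for NK genes, 0.22 for B cell genes, 0.19 for neutrophil and myeloid genes and 0.26 for all genes. Without Th17 replicates 2 and 3 and Th0 replicate 1, Fcer1a ranked 1643 and Cpa3 32, a fall that leaving out their highest arrays brings, while Ighm ranked 3 and Ppbp 8.

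**Figure D4:**
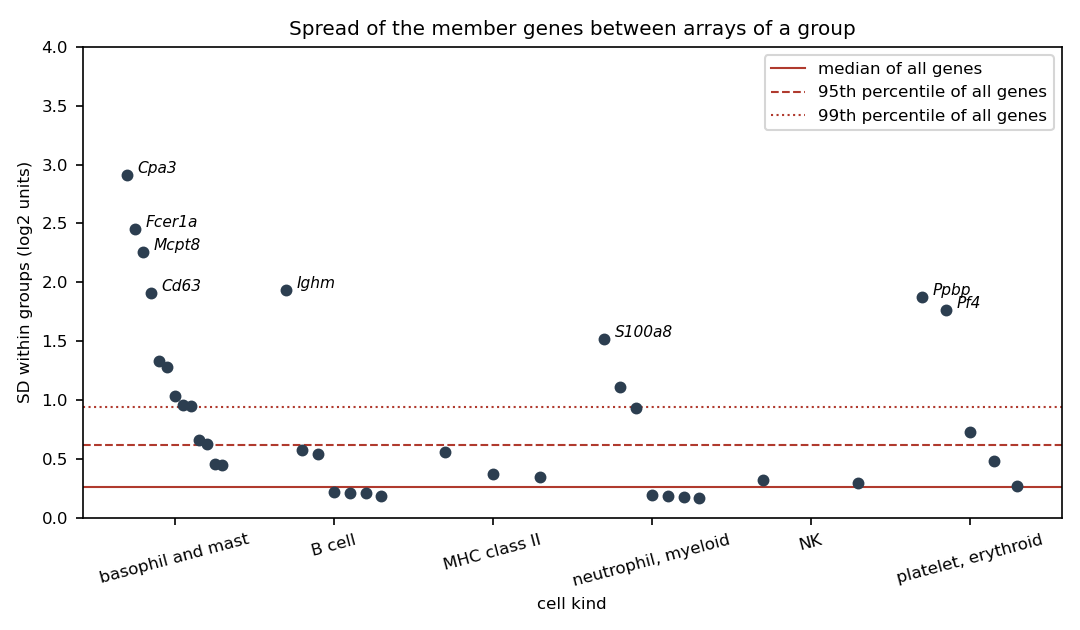
SD of each member gene between arrays of the same group (log2 units, pooled over Th17, Th2 and Th0), by cell kind, with lines at the median, 95th and 99th percentile of all 22180 genes. Cpa3, Fcer1a, Mcpt8, Cd63, Ighm, Ppbp, Pf4 and S100a8 lie above the 99th percentile of 0.937 by the widest margins.

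The comparison of conditions asks whether a polarized culture held more of another cell type than its counterpart. None of the 37 members passed the test in any of the 3 contrasts. In Th17 against Th0, 0 of 37 were called by limma at an adjusted p under 0.05, against 0.104% of all genes, and 2 had an unadjusted p under 0.05, against 5.17%. In Th2 against Th0, 0 were called, against 0.0% of all genes, and 4 had an unadjusted p under 0.05, against 6.34%. In Th17 against Th2, 0 were called, against 0.0766% of all genes, and 5 had an unadjusted p under 0.05, against 6.25%. Of 139 further marker genes of other cells and of T cells, Klrd1 was the gene called in Th17 against Th0 and in Th17 against Th2, and none was called in Th2 against Th0.

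The basophil and mast cell mean was 5.32 ± 1.28 in Th17 (SD, n = 4), 3.95 ± 0.47 in Th2 (SD, n = 3) and 5.21 ± 1.72 in Th0 cultures (SD, n = 3), so the Th17 and Th0 groups each spanned low and high cultures. The median difference of the 13 genes was 0.04 log2 units in Th17 against Th0, -1.01 in Th2 against Th0 and 1.21 in Th17 against Th2, with medians of all genes of -0.02, -0.01 and -0.01. Without Th17 replicates 2 and 3 and Th0 replicate 1 these differences were -0.02, -0.25 and 0.18. Those 3 arrays were left out because these genes were highest on them, so the choice itself brings the differences towards 0. All 13 genes averaged lower in Th2 than in Th0 and higher in Th17 than in Th2. Cpa3 averaged 6.56 ± 3.19 in Th17, 4.42 ± 1.56 in Th2 and 7.14 ± 3.47 in Th0 cultures (SD, n = 4, 3 and 3). Its Th2 minus Th0 difference of -2.73 ± 1.91 (SE) had a limma adjusted p of 0.846.

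Kit had the lowest adjusted p of the members. It averaged 4.92 ± 0.14 in Th17 and 3.74 ± 0.24 in Th2 cultures (SD, n = 4 and 3), a difference of 1.19 ± 0.295 (SE, limma adjusted p = 0.340), with no overlap. Its limma adjusted p was 0.0356 when Th0 replicate 1 was left out of the fit. That array belongs to neither group, so the difference stayed at 1.19. What changed was the spread estimated over all groups and the adjustment. Arrays did not overlap between Th17 and Th2 for 6 members, against 5.6% of all genes. Kit, Alox5ap, Csf2rb, Csf2rb2 and Lat2 were the 5 higher in Th17 on every array (2.6% of all genes). The lowest Th17 and highest Th2 values were close for Csf2rb2 (3.18 and 3.16), Csf2rb (4.23 and 4.14) and Alox5ap. They lay further apart for Kit (4.78 and 4.02) and Lat2 (5.18 and 4.65). Csf2rb2 was near background on Th17 replicates 1 and 4 and on every Th2 array, and Alox5ap on Th17 replicate 4. Kit, Csf2rb and Alox5ap were near background on Th2 replicates 2 and 3, whereas Lat2 exceeded the limit on all 10 arrays. Adgre1, near background on all arrays, was the 1 lower in Th17 (3.0% of all genes). Between Th17 and Th0, 0 members were without overlap, against 7.57% of all genes (3.22% higher and 4.35% lower in Th17).

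Between Th2 and Th0, 4 members were lower on every Th2 array, against 3.94% of all genes, and 1 was higher, against 4.48%, with 8.43% of all genes without overlap. H2-Ab1 averaged 4.74 ± 0.28 in Th2 and 5.86 ± 0.71 in Th0 cultures (SD, n = 3 each), a difference of -1.12 ± 0.382 (SE, limma adjusted p = 0.768). H2-Eb1 averaged 4.57 ± 0.24 in Th2 and 5.43 ± 0.47 in Th0 cultures (SD, n = 3 each), a difference of -0.86 ± 0.272 (SE, limma adjusted p = 0.768). The others were Csf2rb2 and Bank1, lower in Th2, and Itgam, higher in Th2, the last 2 with values near background on every array. Csf2rb2 was near background on every Th2 array and on Th0 replicates 2 and 3, at 3.54 and 3.70.

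Car1 averaged 2.79 ± 0.18 in Th17, 2.73 ± 0.15 in Th2 and 4.28 ± 1.34 in Th0 cultures (SD, n = 4, 3 and 3). The difference was -1.49 ± 0.461 in Th17 against Th0 (SE, limma adjusted p = 0.673) and -1.56 ± 0.493 in Th2 against Th0 (SE, limma adjusted p = 0.768). It passed the test without Th0 replicate 2, the Th0 culture with the low value, at -2.23 (limma adjusted p = 0.0162) and -2.30 (limma adjusted p = 0.0452). The neutrophil and myeloid mean was 3.50 ± 0.74 in Th17 (n = 4), 3.08 ± 0.07 in Th2 (n = 3) and 3.32 ± 0.19 in Th0 cultures (n = 3, all SD), the Th17 value resting on replicate 1. The B cell mean was 3.84 ± 0.50 in Th17 (n = 4), 3.74 ± 0.28 in Th2 (n = 3) and 4.03 ± 0.44 in Th0 cultures (n = 3, all SD).

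**Figure D5:**
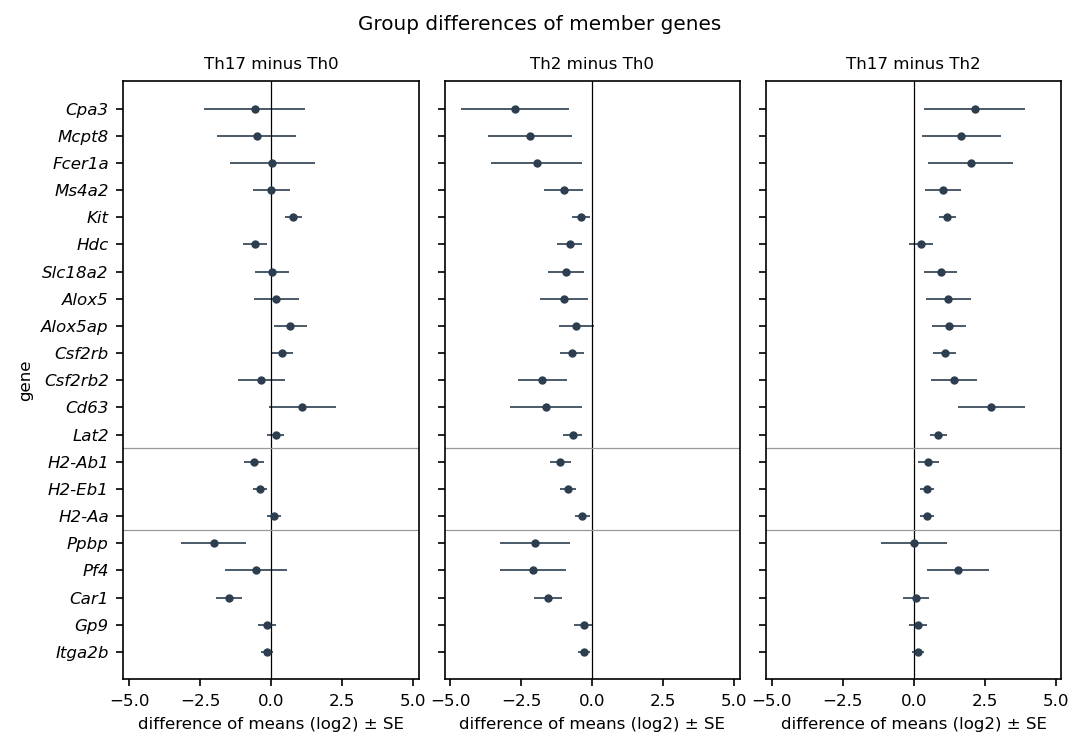
Difference of group means (log2 units, with SE from limma) for the basophil and mast cell, MHC class II, and platelet and erythroid members in Th17 minus Th0, Th2 minus Th0 and Th17 minus Th2. All 13 basophil and mast cell genes lie left of 0 in Th2 minus Th0 and right of it in Th17 minus Th2, with wide errors, and none passed the test.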

How the data were processed

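RNA from 10 cultures was amplified, labelled with biotin and hybridised to 1 array each, per the labels' protocols. The deposited values are log2 levels from RMA in Affymetrix Expression Console 1.3.0.187, per the submitters' processing notes. RMA corrects background, quantile-normalizes and summarizes each probe set. It hides changes in total RNA and compresses differences of low genes. The sources used here name no genome build.

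Of 41345 probe sets, 23521 had 1 gene symbol, 1814 several and 16010 were not in the probe table. Symbols were checked through 23328 Entrez IDs in RefSeq, and 0 changed. Groups came from the sample titles. The title's number was kept for Th2 replicate 3, whose description has 4. Differences were fitted with limma 3.58.1 (R 4.3.3) on 3 group means over all 22180 genes, with 7 residual degrees of freedom, eBayes and Benjamini-Hochberg adjustment. The code was tested on simulated data. The number of arrays limits the precision.

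Every measured member is named. Of each further list, up to 4 genes with the widest range over the arrays could be named, plus Cd3e, Cd4, Cd8a, Il4 and Il13. Il5ra, Sdc1, Tnfrsf17, Camp, Retnlg, Csf3r, Ngp and Ltf were named outside this rule. So were the genes described above as named after their values were seen. The members and lists were chosen with earlier results of these data known. Alternatives covered the normalization, probe set rule, filter, variance model, replicate block and arrays left out.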

Additional observations from a re-analysis of the deposited data

Results flagged for a closer look

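In the Th17 group, which had 4 arrays, 92 values were tested for 1 array far from its nearest neighbour (Dixon's test at its 95% critical value), and 8 stood out. Chance gives about 1 in 20. Th17 replicate 1 stood out in Cd79a (4.21, the next value being 3.14), in S100a8 (7.16, next 2.68), in S100a9 (6.52, next 3.53) and in the mean of the neutrophil and myeloid genes (4.61, next 3.14). Th17 replicate 3 stood out in Mcpt4 (4.15, next 2.99). Th17 replicate 4 stood out on the low side in Itgb3, an integrin of platelets and other cells (4.08, next 5.65), in Cd4 (7.15, next 7.97) and in Zap70, a T cell receptor kinase (7.08, next 7.89). It was one of the 3 arrays that stood apart on the first principal component, and the part of that in these values was not tested.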

How the results depend on the processing

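Under 21 alternatives the members gave 2274 differences with a value. Of these, 2107 kept direction and side of the threshold, 164 uncalled differences turned sign, 3 gained a call and 0 lost one or reversed. Leaving out 1 replicate at a time gave 0 to 1 called members in each contrast. The gains were Car1 in Th17 and in Th2 against Th0 without Th0 replicate 2, and Kit in Th17 against Th2 without Th0 replicate 1. The Klrd1 call in Th17 was lost under 12 of the 21 alternatives against Th0 and under 7 against Th2, with its direction kept in each; the replicate block gave an adjusted p of 0.0866 against Th0 and 0.033 against Th2, and with the description's number as the block the call was lost in both, at 0.0973 and 0.0963 (limma). With low genes left out, Ighm alone of the B cell genes stayed, so that median difference was -0.69 in Th17 against Th0, -1.65 in Th2 against Th0 and 0.96 in Th17 against Th2. The platelet and erythroid median in Th2 against Th0 was -0.24, against -1.56, without the 3 arrays that stood apart. That fit left Th2 replicate 1 as the only Th2 array, so the value rests on a single culture. With the 90th and 99th percentile of the receptor genes as the limit, 4 and 16 members exceeded it on no array, against 8. Without Th17 replicates 2 and 3 and Th0 replicate 1, 3 of the members were among the 20 genes with the largest spread, against 7, an alternative chosen after seeing the data, and leaving out 1 array at a time gave 5 to 7.

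Replicate numbers are shared by the groups, but 1 of 9 same-number pairs had a correlation of deviations over 0.1 (range -0.31 to 0.30), and 1 of 10 arrays correlated best with its own number. By the number in the description, which gives Th2 replicate 3 the number 4, 2 of 8 pairs were over 0.1 (range -0.29 to 0.49). With the replicate number as a block, 0 members were called in each contrast, and Kit differed by 1.23 in Th17 against Th2 (limma adjusted p = 0.388).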

Other observations

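Some genes outside the lists also ranked among the 20 with the widest spread within groups, and were named after their values were seen. Ctsg, cathepsin G, which lies next to Mcpt8 on chromosome 14, was 6.63 and 7.16 on Th17 replicates 2 and 3 and 8.96 on Th0 replicate 1, against 3.55 to 5.56 elsewhere. Tph1, the enzyme of serotonin synthesis in mast cells, was 7.99, 7.54 and 8.19 on these arrays, against 3.20 to 5.02 elsewhere. Il6, the cytokine that was itself added to the Th17 cultures, was 7.93, 6.47 and 7.49 on them, against 3.42 to 4.01 elsewhere. Eomes, a T cell and NK cell transcription factor from the list of further NK and CD8 T cell genes and not among those 20, was 6.58, 6.66 and 7.28 on the same arrays, against 4.18 to 5.89 elsewhere.

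An immunoglobulin kappa variable gene, chosen the same way, was 7.63 on Th17 replicate 1 and 5.84 on Th0 replicate 2, against 2.16 to 4.09 elsewhere. Ighm and Jchain had the same 2 highest arrays in the same order.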
